A study of Mus musculus with 24 samples.

Results

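The chromatin mark H3K27ac was compared between Meckel's cartilage (MC) and forelimb cartilage (FL) of the mouse at E14.5, with 6 of the 24 samples of the series: 3 libraries of MC and 3 of FL. MC is the paired rod of cartilage inside the developing lower jaw. Both cartilages came from wild-type C57BL/6 embryos and carried no mutation or treatment. MC was dissected as bars, the forelimb was freed of surrounding connective tissue, and both were digested to cells, of which 50000 went into each assay. The labels name the cells chondrocytes, mention no sorting step, and do not say whether replicates were separate animals or pools, so any p-value below measures only the spread between these libraries. The study set out to find enhancers active in jaw and limb cartilage.

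The comparison rests on 2 pooled peak lists, 1 per cartilage, in which the authors combined the libraries. A pooled list has no replicate, so its values carry no SD and no test. Each peak has a total signal, given by the authors, and the lists stopped at different minima: 16925 in MC and 25799 in FL. The higher minimum was applied to both as a floor. It left 29685 of 47549 MC peaks and all 39914 FL peaks on the autosomes and X. Every covered base was assigned to a protein-coding gene: the smallest gene span holding it, or the nearest one within 1 Mb. The bases assigned to a gene are called its domain, and the kb of H3K27ac in that domain its cover. ATAC-seq peak lists of open chromatin, from 3 MC and 3 FL libraries of the same stage, gave a replicated readout that took no part in choosing the peaks.

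Acetylation of lysine 27 of histone H3 is laid down by the acetyltransferases p300 and CBP at active enhancers and promoters, and long stretches of it often lie over genes that define a cell type. MC derives from cranial neural crest, whose cells carry no Hox expression in the jaw and are patterned by Dlx, Msx and Hand factors. Limb cartilage derives from lateral plate mesoderm, is patterned by posterior HoxA and HoxD genes, and its forelimb identity depends on Tbx5. The cartilage programme itself, driven by Sox9 with Sox5 and Sox6, is shared.

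Marked promoters of 4 such regulators are printed here because each lay under a peak of 1 pooled list and none of the other. They are RefSeq windows of build GRCm38.p6 (mm10), 5′ to 3′ on the gene's strand, from 250 bases before to 50 after the gene's start. Capitals mark each CG dinucleotide, the site of DNA methylation in mammals. The Msx1 window (chr5:37824536-37824835, minus strand) lay in a 16.8 kb MC peak, and the Meis2 window (chr2:116064570-116064869, minus strand) in an 18.8 kb MC peak. The Hoxa10 window (chr6:52240805-52241104, minus strand) lay in a 38.7 kb FL peak, and the Tbx18 window (chr9:87731211-87731510, minus strand) in a 4.3 kb FL peak.
Msx1: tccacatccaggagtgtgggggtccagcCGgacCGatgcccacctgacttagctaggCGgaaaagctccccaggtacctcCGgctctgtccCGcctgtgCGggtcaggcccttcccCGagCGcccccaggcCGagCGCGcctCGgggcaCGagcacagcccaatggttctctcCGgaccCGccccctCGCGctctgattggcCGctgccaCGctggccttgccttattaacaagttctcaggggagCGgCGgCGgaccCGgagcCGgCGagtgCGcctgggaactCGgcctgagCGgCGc
Meis2: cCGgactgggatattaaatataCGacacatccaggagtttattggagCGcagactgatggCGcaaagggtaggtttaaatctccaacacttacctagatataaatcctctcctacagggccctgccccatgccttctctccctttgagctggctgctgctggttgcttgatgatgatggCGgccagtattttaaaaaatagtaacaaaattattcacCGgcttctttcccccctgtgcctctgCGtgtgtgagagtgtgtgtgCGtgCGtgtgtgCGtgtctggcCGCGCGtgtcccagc
Hoxa10: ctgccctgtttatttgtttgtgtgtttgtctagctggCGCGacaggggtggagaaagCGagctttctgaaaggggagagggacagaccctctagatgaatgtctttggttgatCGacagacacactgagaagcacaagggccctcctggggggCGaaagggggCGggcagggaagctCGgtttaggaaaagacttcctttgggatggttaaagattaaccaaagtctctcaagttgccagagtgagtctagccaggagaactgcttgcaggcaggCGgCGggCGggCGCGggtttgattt
Tbx18: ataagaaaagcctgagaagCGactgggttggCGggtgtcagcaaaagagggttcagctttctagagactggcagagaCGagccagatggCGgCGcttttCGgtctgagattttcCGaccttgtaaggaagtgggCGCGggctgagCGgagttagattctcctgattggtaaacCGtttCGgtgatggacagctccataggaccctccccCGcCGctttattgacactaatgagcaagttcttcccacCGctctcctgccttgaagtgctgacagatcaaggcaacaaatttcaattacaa

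The Msx1 window held 29 CG on either strand, a number reached by 17.3% of all 21045 promoter windows of these genes. The Meis2, Hoxa10 and Tbx18 windows held 13, 12 and 15, and the median over all windows was 13. CG occurred at least once in 95.5% of windows, so only the number tells windows apart. The median number was 21 in windows marked in both lists, 17 in those marked in MC only, 8 in those marked in FL only and 4 in those marked in neither. Windows marked in FL alone were thus closer to unmarked windows in CG number than those marked in MC alone were.

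With the floor, H3K27ac covered 337.0 Mb in MC and 454.4 Mb in FL. The 2 lists shared 274.2 Mb, which was 81.3% of the MC bases and 60.3% of the FL bases (Jaccard index 0.530). Peaks were broad in both, with a median width of 8.01 kb in MC against 7.36 kb in FL and a longest peak of 234.1 and 246.2 kb. Peaks of 20 kb or more numbered 3362 in MC and 4741 in FL, and held 33.8% and 37.2% of the bases. Without the floor the MC list covered 407.7 Mb with a median width of 5.51 kb, so the order of the median widths depended on the floor.

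**Figure D1:**
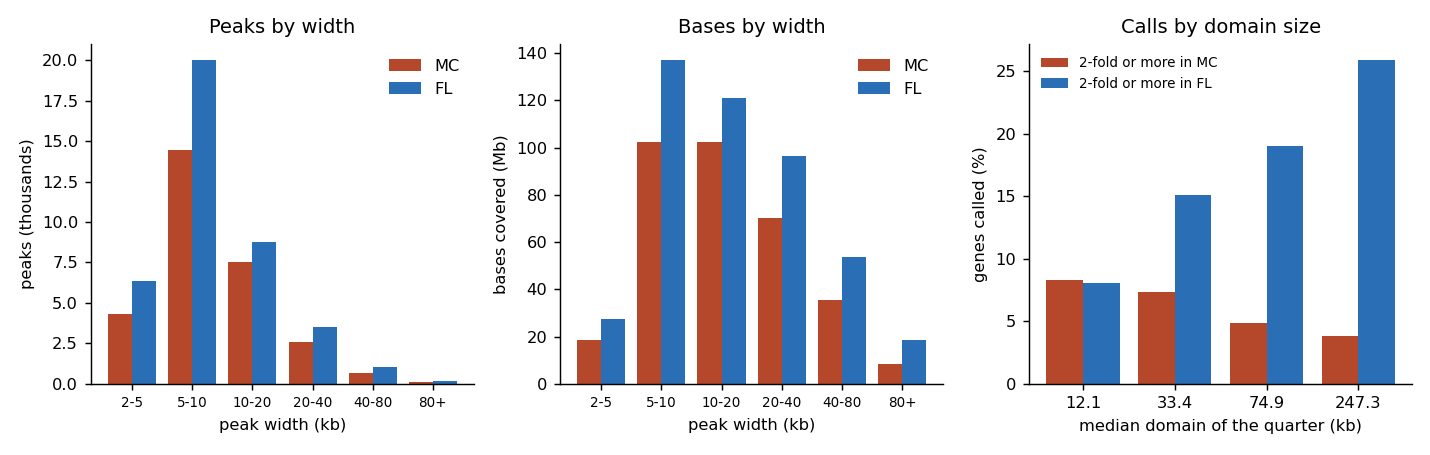
Pooled H3K27ac peaks of MC (red) and FL (blue) at or above the floor: number of peaks and bases covered (Mb) by peak width, and the percentage of tested genes with 2-fold or more scaled cover in either cartilage, by class of gene domain size. FL had more peaks in each width class shown, and its share of called genes went from 8.08% in the smallest domains to 25.9% in the largest.

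An MC peak lacked any FL peak in 2877 cases (9.69%), and an FL peak lacked any MC peak in 15159 cases (38.0%). The 2 percentages depended on the floor: without it they were 23.4% and 21.6%, when the 17864 MC peaks it removed, of median width 3.93 kb, counted as partners and the unpartnered FL peaks fell to 8639. Unpartnered peaks were narrower, at 6.09 kb against 8.45 kb for partnered peaks in MC and 6.10 against 9.58 kb in FL. They also lay less often on a promoter window: 18.8% of unpartnered against 33.6% of partnered MC peaks, and 9.7% against 35.5% in FL. Of 17274 genes with a promoter window, 8499 (49.2%) were marked in both lists, 696 (4.03%) in MC only and 1068 (6.18%) in FL only.

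The 2 widest peaks with no partner in each cartilage were centred in transcription factor genes. In MC the longest was 43.6 kb inside Meis1 (chr11:18924094-18967690), followed by 24.8 kb inside Meis2 (chr2:115872179-115896968). Both genes encode TALE homeodomain proteins, cofactors of other homeodomain factors. In FL the longest was 72.3 kb with its midpoint inside Tbx5 (chr5:119819755-119892102), the T-box factor of forelimb outgrowth. The next was 52.6 kb with its midpoint inside Tbx15 (chr3:99233221-99285845), a T-box factor of limb skeleton size. At the Tbx5 and Tbx15 peaks the MC list had no peak below the floor either. The FL list had no peaks below the floor at all, so the MC peaks could not be checked in this way. The other widest ones had midpoints in Kdm2a, Stx18 and Sorl1 in MC (21.7, 20.1 and 19.7 kb) and in or beside Aopep, Col6a6 and Utrn in FL (51.7, 46.2 and 40.8 kb), where the MC list held 19.5, 6.9 and 4.0 kb below the floor.

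**Figure D2:**
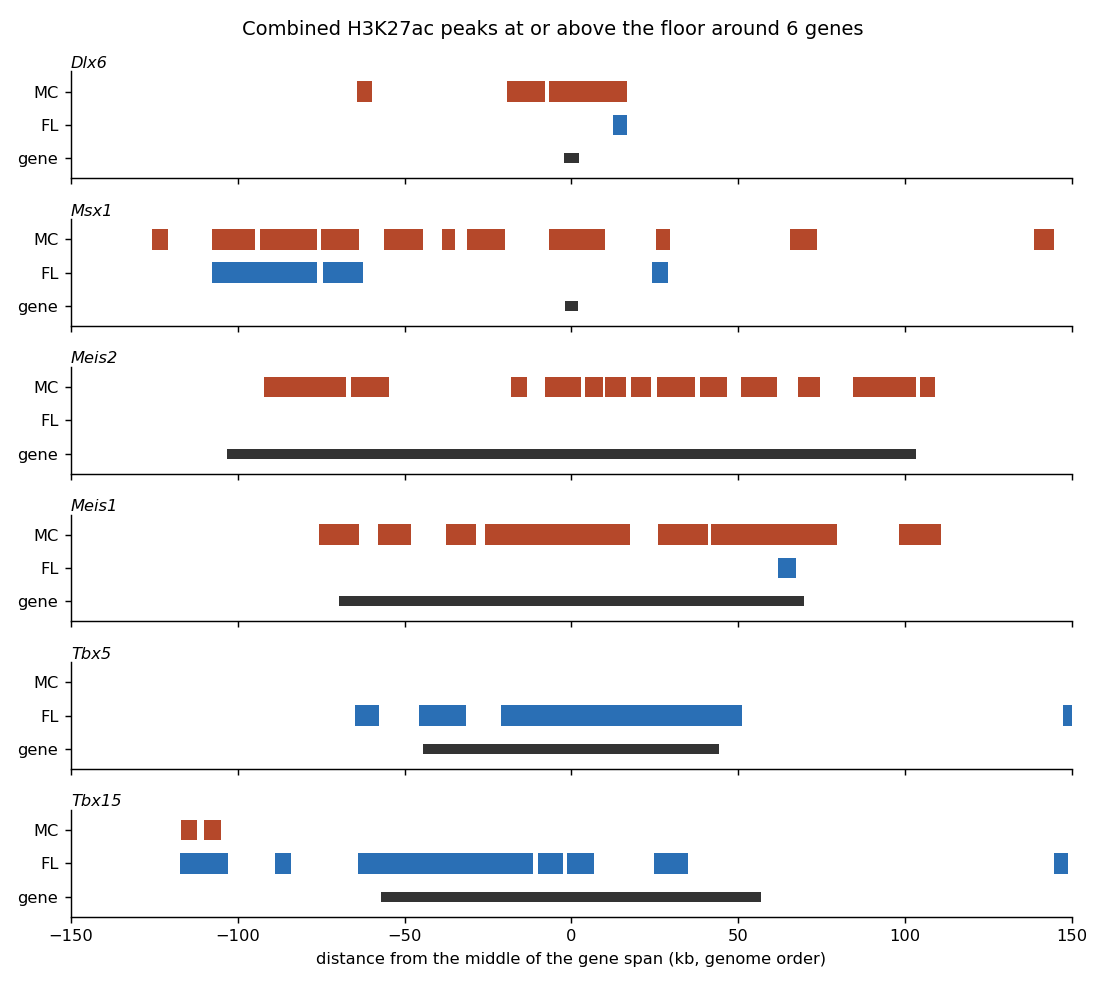
Pooled H3K27ac peaks of MC (red) and FL (blue) at or above the floor within 150 kb of the middle of 6 gene spans (grey), in genome order. Meis2 carried 13 MC peaks and no FL peak in its domain, and Tbx5 carried 4 FL peaks and no MC peak. FL peaks near Msx1 and MC peaks near Tbx15 at the edges of the maps belonged to neighbouring domains, except the single FL peak of the Msx1 domain.

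For each gene, cover was scaled so that both lists had the same total, and the log2 ratio of MC to FL was taken after adding 1 kb. Of 14687 genes with a scaled mean of at least 2 kb, 892 (6.07%) had 2-fold or more cover in MC and 2502 (17.0%) in FL. All kb values printed below are unscaled. The median ratio over all genes was 0.13. Without the floor the counts were 1206 and 1382, so the excess of FL calls depended on it, and without scaling they were 472 and 3560 around a median of -0.28. Over the main setting and the 8 alternatives that use cover, 181 genes were called for MC in all 9 and 416 for FL. FL calls were more frequent in larger domains and MC calls less frequent: over 4 classes of equal number from the smallest to the largest domains, FL calls made up 8.08%, 15.1%, 19.0% and 25.9%, and MC calls 8.27%, 7.35%, 4.83% and 3.84%. Of the FL calls 1289 genes were listed at 0 in MC, and of the MC calls 218 were listed at 0 in FL. A ratio against 0 depends on the added kb, so none is printed for such a gene. A gene listed at 0 in either list could pass the minimum cover only through the other. The direction of its call therefore follows from the filter.

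**Figure D3:**
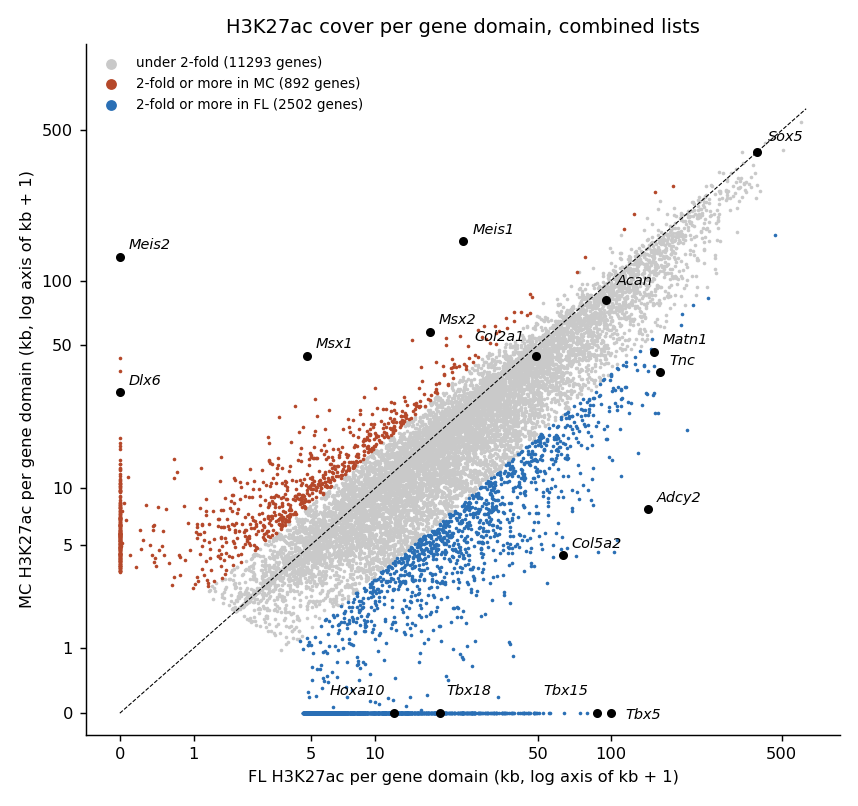
H3K27ac cover of each tested gene domain in the pooled lists (kb, log axes of kb + 1), with FL on the horizontal and MC on the vertical axis and genes of 2-fold or more scaled cover in red (MC) or blue (FL). Meis2 and Dlx6 lie at 0 kb in FL, Tbx5, Tbx15, Tbx18 and Hoxa10 at 0 kb in MC, and Col2a1, Acan and Sox5 lie near the dashed line of equal cover.

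The cartilage genes checked the labelled cell type, and they carried the mark in both lists. Col2a1, the main collagen of cartilage, had 44.3 kb in MC against 48.8 in FL, in 1 peak of 46.9 and 1 of 51.4 kb that spanned the whole gene. Acan, the large proteoglycan, had 81.3 and 95.1 kb. Sox9, the master regulator of chondrocytes, had 130.8 and 118.5 kb, and its partners Sox5 and Sox6 had 397.1 against 397.2 kb and 236.1 against 296.9 kb. Of 31 cartilage matrix genes, 0 were called for MC and 1 for FL, with a median log2 ratio of 0.28. The 1 was Matn1, matrilin of mature cartilage, with 46.3 kb in MC against 149.6 in FL (log2 ratio -1.25). The difference lay mostly in its flanks, since the gene span itself held 3.75 and 6.13 kb, and with domains of up to 100 kb the ratio was -0.80 and not called. Of 23 tested cartilage regulators, 1 was called for MC (Nkx3-2, a repressor that keeps chondrocytes immature) and 1 for FL (Pthlh, the signal that holds off hypertrophy), and the median was 0.27. The 15 reference genes had a median of 0.41, and 3 of them were called for MC, so a ratio of this size was also found in genes of general cell upkeep. Without scaling the medians of the matrix genes and regulators were -0.14 and -0.15, above the -0.28 of all genes.

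In the pooled lists, jaw and cranial neural crest regulators had more H3K27ac cover in MC. Of 35 tested, 14 were called for MC and 1, Nr2f1, for FL, where the share of all genes was 6.07% and 17.0%. Their median log2 ratio was 0.63 (0.23 without scaling and 1.19 with a floor 2 times as high). By number of peaks it was 0.258, near the 0.215 of all genes. Of the 14, 8 were called in all 9 cover settings, among them Dlx1, Dlx3, Dlx6, Msx1, Msx2 and Nkx3-2. Dlx1 and Dlx6 were among the MC calls listed at 0 in FL, and Nr2f1 was listed at 0 in MC. The direction of such calls follows from the filter. Dlx6, a homeodomain factor that with Dlx5 gives the lower jaw its identity, had 29.7 kb in MC but none listed for FL. Msx1, a homeodomain factor of jaw and tooth growth, had 44.3 against 4.80 kb (log2 ratio 3.35), and Msx2 had 57.6 against 17.3 kb (2.09). Dlx3, a factor of the distal jaw, had 18.1 against 3.01 kb (2.62). Not every jaw gene was called. Gsc, downstream of endothelin signalling, had 49.3 and 47.4 kb (0.48), Pitx1 22.7 and 19.4 kb (0.63), and Barx1 26.6 and 31.2 kb (0.20). With a floor 2 times as high, Gsc and Pitx1 reached 1.13 and 3.73, and Barx1 was at -0.12. With domains of up to 100 kb Pitx1 was at 1.31. The Pitx1 gene span itself held 10.0 kb in MC and 0 in FL, that of Barx1 3.47 and 0 kb, and that of Gsc 2.03 kb in both.

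Neighbouring genes shared peaks here. A 23.3 kb MC peak centred in the Dlx6 domain also reached the domain of Dlx5, which had 9.37 kb against 4.32 kb in FL (log2 ratio 1.33) and no MC peak centred in it. By the widest centred peak Dlx5 went the other way (-2.41), because its 4.32 kb FL peak then stood against none. Hand2, a factor of the distal jaw that also acts in the early limb bud, had 18.9 against 10.0 kb, 1 peak in each (1.25). Six2, a regulator of mesenchymal progenitors, had 53.4 and 30.1 kb (1.23). Without scaling Dlx5, Hand2 and Six2 fell just short of 2-fold (0.96, 0.85 and 0.81).

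TALE and Iroquois homeobox genes had a median of 0.90 over 17 genes, which fell to 0.36 with a floor 2 times as high, 0.47 without scaling and 0.01 by the widest peak. For MC 8 were called (47.1%, against 6.07% of all genes) and 1, Irx4, for FL (5.88%, against 17.0%). Of the MC calls, Meis2, Irx1, Irx2 and Irx6 were listed at 0 in FL, and Irx4 was listed at 0 in MC. These genes could pass the minimum cover only through the other list, so the direction of their calls follows from the filter. Meis2 had 129.2 kb in MC, in 13 peaks, against none in FL, and below the floor the MC list added more of it (146.0 kb in all). Meis1 had 152.3 kb in 9 peaks against 24.2 kb in 3 peaks (log2 ratio 3.03). Meis1 and Meis2 were called in all 9 cover settings. Pknox2, another family member, had 216.6 and 155.8 kb (0.90). Also called for MC were Pbx3, Irx1, Irx2, Irx3 and Irx6.

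Hox genes had no H3K27ac cover in the MC list. All 39 were listed at 0 there, and without the floor the MC list still overlapped 0 of the 39 gene spans. In FL 28 were listed at 0. The 9 that could be tested were all called for FL: Hoxa3, Hoxa7, Hoxa9, Hoxa10, Hoxa11, Hoxc4, Hoxd9, Hoxd10 and Hoxd11. A Hox gene listed at 0 in MC could pass the minimum cover only through FL, so this count follows from the filter. Hoxa10 had 12.2 kb in FL, Hoxa11 10.9 kb and Hoxa9 8.45 kb, and no peak was centred in the Hoxa9 or Hoxa11 domain, so their cover came from peaks centred in a neighbour, such as the 38.7 kb peak centred in Hoxa10. Hoxd10 had 9.42 kb, from a peak of 15.0 kb. Hoxa13, which marks the hand plate, had 2.15 kb in FL, from the end of that 38.7 kb peak. No FL peak was centred in the Hoxa13 domain or lay over its gene span, and it was below the minimum cover. Hoxd13 was listed at 0 in both.

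Other limb patterning genes went both ways. Of 26 tested, 8 were called for FL (30.8%, against 17.0% of all genes) and 6 for MC (23.1%, against 6.07%), with a median of 0.02. The 8 were Tbx3, Tbx5, Tbx15, Tbx18, Shox2, Lhx9, Shh and Sall3, and the 6 included Sall4, Hand2, Meis1, Meis2 and Pbx3, of which Meis1, Meis2 and Pbx3 are also in the TALE list. Tbx5, Tbx15, Tbx18, Lhx9, Shh and Sall3 were listed at 0 in MC, and Sall4 and Meis2 at 0 in FL. These genes could pass the minimum cover only through the other list, so the direction of their calls follows from the filter. Tbx5 had 99.9 kb in FL against none in the MC list, with or without the floor. Tbx15 had 87.6 kb in FL and none in MC above the floor, where 4.04 kb lay below it. Tbx18, a T-box factor of limb mesenchyme, had 19.2 kb in FL in 3 peaks, none of which reached a floor 2 times as high, and 4.83 kb in MC below the floor. Shox2, which drives growth of the proximal limb bones, had 38.9 kb in FL against 11.9 in MC (log2 ratio -1.22, and -0.98 with domains of up to 100 kb).

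**Figure D4:**
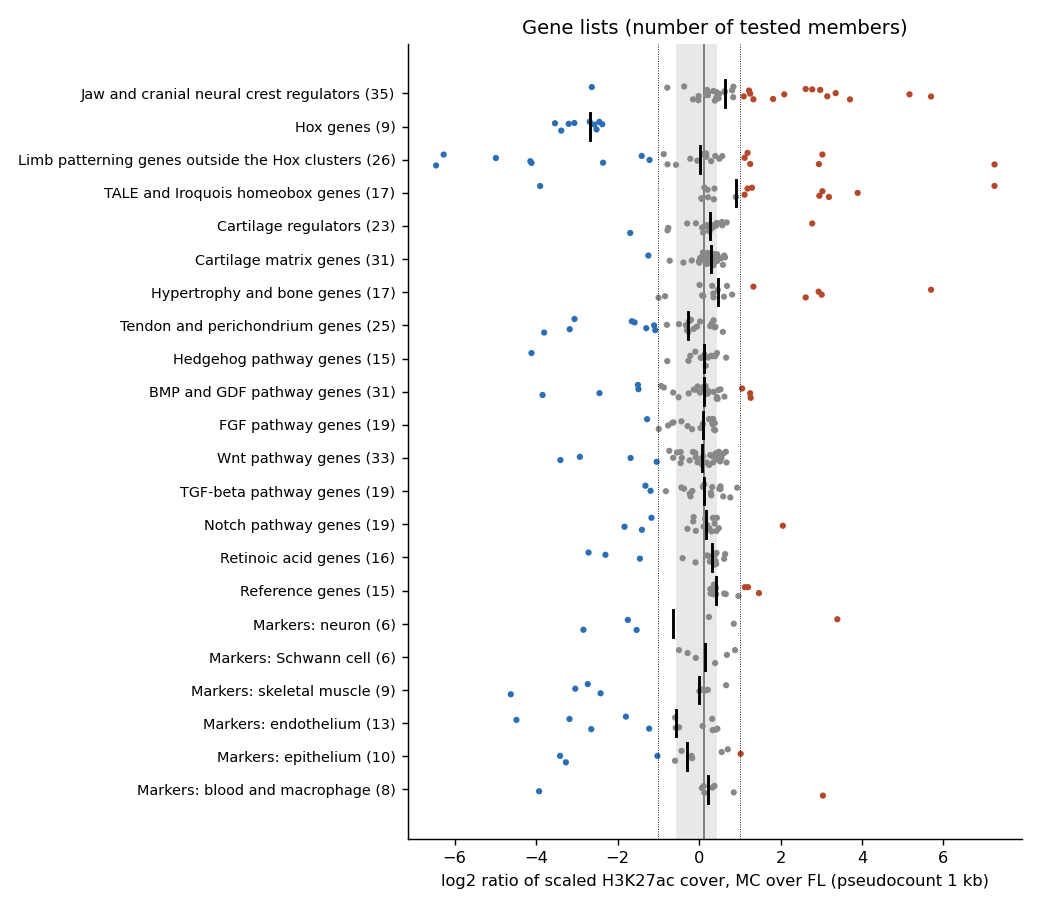
Log2 ratio of scaled H3K27ac cover, MC over FL, for each tested member of 22 gene lists (points; red 2-fold or more in MC, blue in FL), with the list median (black bar), the interquartile range of all tested genes (grey band) and their median (grey line). Ratios of genes listed at 0 in one list depend on the added 1 kb. The medians of the TALE and Iroquois list (0.90) and the jaw list (0.63) sit right of the band, and all 9 tested Hox genes lie left of -1.

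Among genes of hypertrophy and bone the calls were for MC, and among genes of tendon and perichondrium they were for FL. Of 17 tested hypertrophy and bone genes, 5 were called for MC (29.4%, against 6.07% of all genes) and 0 for FL (against 17.0%). Among the 5 were Mmp9, Dmp1, Dlx5 and Dlx3, of which Mmp9 and Dmp1 were listed at 0 in FL. The median was 0.46 (-0.55 by the widest peak). It lay near the 0.41 of the 15 reference genes, of which 3 were called for MC. Dlx5 and Dlx3 are also jaw regulators, and Runx2, the osteoblast factor, had 125.4 and 131.9 kb (0.35). Of 25 tested tendon and perichondrium genes, 0 were called for MC and 8 for FL (32.0%, against 17.0% of all genes), with a median of -0.26. By number of peaks the median was 0.093, against 0.215 for all genes. The 8 were Thbs4, Kera, Osr2, Col5a2, Col12a1, Col14a1, Postn and Tnc, of which Kera and Osr2 were listed at 0 in MC. Col5a2, Col12a1 and Tnc had large domains, of 287.2, 580.6 and 674.9 kb. In the class of largest domains (median 247.3 kb) 25.9% of genes were called for FL. Col5a2, a fibrillar collagen chain, had 4.41 kb in MC against 63.0 in FL (-3.18), and Col12a1, a collagen of dense connective tissue, had 21.3 and 88.3 kb (-1.58). Tnc, the matrix protein tenascin C, had 37.0 and 159.4 kb (-1.65), but 73.4 kb in MC without the floor (-0.95). The label gives no more than cartilage, and the part of surrounding tissue in these differences was not tested.

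Markers of other cell types were measured beside these lists, and their counts of calls stand against 6.07% of all genes for MC and 17.0% for FL. Summed over 14 endothelial markers, cover came to 508.6 kb for MC against 787.7 for FL, with 4 and 1 of them listed at 0. Of 13 tested, 0 were called for MC and 5 for FL. The median, -0.57, was -0.22 without the floor and 0.215 by number of peaks, equal to that of all genes. The call of Kdr ended without the floor (-0.26). Over 14 skeletal muscle markers the sums were 67.1 and 173.0 kb, with 8 and 5 at 0, 4 of 9 called for FL and a median of 0.01, and 5 of 9 above 0. The 4 were Acta1 (0 and 4.99 kb), Myh3 (0 and 8.30 kb; its call ended without the floor), Actn2 (0 and 27.2 kb) and the muscle progenitor factor Pax7 (5.86 and 59.0 kb; its call ended without the floor). Over 14 epithelial markers they were 113.0 and 175.5 kb (3 of 10 called for FL and 1 for MC; the median, -0.31, was 0.05 without the floor), and over 15 neuronal markers 42.8 and 93.5 kb (3 of 6 and 1; the median, -0.65, was 0.98 without the floor). Over 10 Schwann cell markers they were 158.4 and 164.0 kb (0 of 6 called), and over 14 blood and macrophage markers 354.9 and 443.8 kb (1 of 8 each way). A marker listed at 0 in MC could pass the minimum cover only through FL. The summed cover of each of these lists was higher in FL, as was that of all genes, and its part in the FL calls was not tested.

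Signalling lists stayed near the median of all genes. Hedgehog genes had a median of 0.13 (0 of 15 called for MC and 1 for FL), BMP and GDF genes 0.12 (3 and 4 of 31), FGF genes 0.09 (0 and 1 of 19), Wnt genes 0.08 (0 and 4 of 33), TGF-beta genes 0.13 (0 and 2 of 19), Notch genes 0.16 (1 and 3 of 19) and retinoic acid genes 0.32 (0 and 3 of 16). Gli3, the Hedgehog-controlled repressor of limb patterning, had 175.0 and 274.4 kb (log2 ratio -0.22), and Fgfr2, an FGF receptor of the skeleton, had 221.5 and 228.4 kb (0.39). Bmpr1b, the BMP receptor of early cartilage, had 66.5 and 36.6 kb (1.27) and was called for MC, but not without scaling (0.84). Rxrg and Cyp26a1, a retinoid receptor and a retinoic acid-degrading enzyme, had 5.09 against 51.5 kb (-2.72) and 5.05 against 38.0 kb (-2.30) and were called for FL, Cyp26a1 not with the higher floor.

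By absolute size, the MC calls with the most extra scaled cover included Prdm16, Meis1, Meis2, Fto, Sorbs2, Tox, Sobp, Kif5c, Mllt3, Msx2, Gdf10, Samd5 and Msx1. Prdm16, a zinc finger regulator whose loss gives cleft palate in mice, had 275.0 and 180.3 kb (log2 ratio 1.04). Samd5 had 52.5 and 14.6 kb (2.19), and Gdf10, a BMP family ligand, 71.3 and 39.7 kb (1.25). The FL calls were led by Rbms3, Lyplal1, Mgmt, Adcy2, Sdk1, Rbfox1, Kcnma1, Plcb1, Celf2, Adamtsl1, Tnc, Fstl4, Sema6d, Tnp1 and Tbx5. Adcy2, an adenylate cyclase, had 7.82 kb in 2 MC peaks and 141.5 kb in 18 FL peaks (-3.61). Lyplal1 had 19.5 and 204.5 kb (-2.91), and Rbms3, an RNA-binding protein, 163.0 and 470.7 kb (-1.10). Of these 28 genes, 18 kept their call without the floor and 20 without scaling.

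ATAC-seq gave a replicated check of these differences in another readout. In limma fits of ATAC cover per gene, 4 of 16121 genes (0.0248%) passed an adjusted p of 0.05 for MC and 5 (0.031%) for FL. Hoxa10 was one of the 9: its ATAC cover was 0 kb in each of the MC libraries and 1.99, 4.47 and 2.09 kb in the FL libraries (limma adjusted p = 0.0275). Of the 9, 7 were tested by pooled H3K27ac: 4 were called for FL, 0 for MC and 3 were not called. The 4 were Hoxa10, Hsd11b1, Zpld1 and Tfap2e. Tfap2e went opposite ways, with an ATAC log2 ratio of 1.86 but H3K27ac of 0 kb in MC and 5.48 kb in FL. With any 1 library other than the first of MC left out, no gene passed, so the call for Hoxa10 rested on all of those. With the replicate number as a block no gene passed either (smallest limma adjusted p = 0.141). After scaling, the libraries of the 2 cartilages did not overlap for 9.75% of all genes with MC higher and 9.2% with FL higher. Among 2183 genes called for FL by H3K27ac, 18.1% had higher ATAC cover in every FL library and 4.08% in every MC library, and their median ATAC log2 ratio was -0.14. Among 831 genes called for MC these were 6.50% and 10.6%, near the background, with a median of 0.05. Across 13910 genes the 2 log2 ratios had a Spearman correlation of 0.227, a description over genes that share domain size and are not independent.

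Single regulators split by readout. For Tbx5, Tbx15 and Tbx18 both readouts were higher in FL, but not for every T-box gene of the list: Tbx3, called for FL by H3K27ac, had overlapping ATAC libraries, and Tbx2 was higher in every MC library after scaling. ATAC cover of Tbx5 was 2.79, 1.95 and 1.35 kb in the MC libraries and 4.93, 8.30 and 6.55 kb in the FL libraries (log2 ratio -1.49 ± 0.27 SE, limma adjusted p = 0.108). Tbx15 had 3.02, 2.17 and 2.64 kb against 7.80, 8.42 and 7.70 kb (-1.45 ± 0.20, adjusted p = 0.0674), and Tbx18 had 1.87, 1.42 and 3.09 kb against 9.26, 9.95 and 9.10 kb (-1.96 ± 0.26, adjusted p = 0.0612). The groups did not overlap for any of the 3, and none passed the limma threshold over all genes. Hoxd10 was listed at 0 in the MC libraries and had 1.02, 0.932 and 0.856 kb in FL (limma adjusted p = 0.0612).

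Among the genes high in MC, Dlx6 had 6.64, 5.69 and 8.79 kb of ATAC cover in MC and 2.99, 4.14 and 3.19 kb in FL, without overlap (log2 ratio 0.94 ± 0.21 SE, limma adjusted p = 0.129). Meis2, in contrast, had 7.34, 8.33 and 9.31 kb in the MC libraries and 8.96, 7.97 and 9.32 kb in the FL libraries. These libraries overlapped throughout (-0.06 ± 0.22, limma adjusted p = 0.945), although the pooled H3K27ac list held 129.2 kb in MC against none in FL. Meis1 had 17.3, 13.2 and 16.3 kb against 21.2, 18.9 and 16.6 kb (-0.26 ± 0.23, limma adjusted p = 0.682). Msx1 had 9.95, 7.85 and 7.63 kb against 1.74, 8.20 and 5.87 kb, which overlap before scaling (0.86 ± 0.42, limma adjusted p = 0.424). Col2a1, near equal by H3K27ac, had 7.98, 14.525 and 13.5 kb against 6.40, 6.98 and 6.04 kb, without overlap (0.81 ± 0.26, limma adjusted p = 0.237). Hand2, called for MC by H3K27ac, had 10.5, 7.57 and 9.59 kb against 13.9, 15.4 and 17.0 kb, so every FL library was higher (-0.71 ± 0.22, limma adjusted p = 0.22). Gsc and Pitx1, not called by H3K27ac, were higher in every MC library. Gsc had 7.16, 5.41 and 8.46 kb against 2.71, 0.912 and 0.711 kb (2.07 ± 0.41, limma adjusted p = 0.121), and Pitx1 had 4.37, 5.67 and 7.74 kb against 2.04, 1.94 and 0.596 kb (1.74 ± 0.36, limma adjusted p = 0.127). Thus Meis1 and Meis2 differed by pooled H3K27ac without a called difference in open chromatin, which does not show that their open chromatin was equal.

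**Figure D5:**
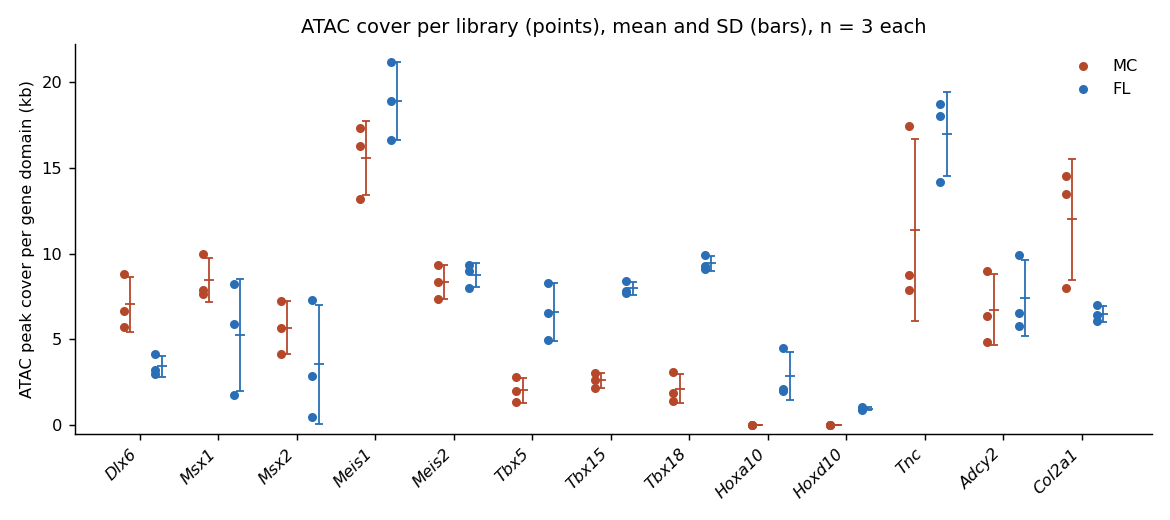
ATAC peak cover per gene domain (kb, unscaled) of 13 genes in each of 3 MC (red) and 3 FL (blue) libraries, with mean and SD. The 3 T-box genes and the 2 Hox genes are higher in each FL library and Dlx6 in each MC library, while Meis1 and Meis2 overlap between cartilages.

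By list, 9 of 42 jaw genes had higher ATAC cover in every MC library and 3 in every FL library, against 9.75% and 9.2% of all genes, and the median was 0.26. Among the 20 Hox genes that passed the minimum ATAC cover, 9 were higher in every FL library and 0 in every MC library, with Hoxa10 past the limma threshold. A Hox gene at 0 in every MC library, such as Hoxa10 or Hoxd10, could pass that minimum only through FL. For such genes the direction follows from the filter. Among 31 other limb patterning genes 14 were higher in every FL library and 2 in every MC library (median -0.49). For the 17 TALE and Iroquois genes it was 1 for MC and 2 for FL, with a median of -0.06 where H3K27ac had 0.90.

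Unpartnered H3K27ac peaks were also looked up in the ATAC libraries. The 15159 FL peaks without an MC partner held an ATAC peak in 26.5%, 33.0% and 22.3% of cases in the FL libraries and in 22.2%, 16.9% and 20.0% in the MC libraries, so each FL library lay above each MC library. The gap was smallest between the third FL library and the first MC library. The 2877 MC peaks without an FL partner held one in 40.9%, 37.7% and 41.5% in the MC libraries and in 41.2%, 50.9% and 37.6% in the FL libraries, which overlap. In partnered peaks the range over all libraries and both lists was 59.2% to 71.2%.

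The H3K27ac lists of the single libraries served only as a check, because they barely overlapped the pooled lists. They held 68477 to 75531 peaks of a median 686 to 766 bp, a size apart from the pooled peaks, and only 5.45% to 7.21% of their bases lay in MC pooled peaks, which cover 13.19% of the assigned genome; the share in FL pooled peaks was 7.67% to 10.6%, of a covered 17.78%. Jaccard indices were 0.0152 to 0.0164 between libraries of one cartilage and 0.0141 to 0.0165 between cartilages. The median width was 741 ± 26.6 bp in MC and 694 ± 13.6 bp in FL (SD, n = 3), with a two-sided exact permutation p of 0.1 (the smallest this design allows, 0.4 after adjustment over 4 summaries). In limma, 0 of 8655 genes (0.0%) passed an adjusted p of 0.05 in either direction, with 597 at an unadjusted p under 0.05.

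The single-library cover also did not follow the pooled differences. Genes whose scaled libraries did not overlap made up 6.37% with MC higher and 5.9% with FL higher. Among 1512 genes called for FL in the pooled lists, the shares were 9.52% and 3.24%, and among 278 called for MC they were 3.6% and 7.55%, neither in the direction of the pooled calls. Over the 5960 genes measured in both, the shares were 7.6% and 3.64%, so those of the FL-called genes lay near this background. Meis1 had 17.7, 18.6 and 18.6 kb in the MC libraries and 29.8, 20.6 and 23.3 kb in the FL libraries, so each FL library was higher. Meis2 had 17.6, 16.3 and 14.1 kb against 21.4, 12.9 and 19.7 kb, and Tbx5 had 7.52, 7.34 and 1.31 kb against 5.05, 2.73 and 2.36 kb. Msx2 had 2.74, 4.56 and 4.54 kb against 5.90, 5.75 and 12.4 kb, so each FL library was higher. Among 31 jaw regulators the median log2 ratio was -0.01, with 13 above 0 and 2 without overlap each way. Of 8 endothelial markers, 4 were higher in every MC library after scaling and 0 in every FL library. The pooled differences of these genes were thus not seen in the single-library lists, and how the pooled lists were made from the libraries is not given in the sources used here.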

How the data were processed

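H3K27ac was measured by CUT&Tag and open chromatin by ATAC-seq. Per the submitters' processing notes, reads passed through Trim Galore, Bowtie2 and SAMtools on mm10, with peaks from SEACR (CUT&Tag) and Genrich (ATAC). Versions and thresholds, and whether the IgG named in the protocol served in calling, are not given in the sources used here. The deposited lists give the authors' total and highest signal per peak for H3K27ac and a signal value for ATAC; the total signal of the pooled lists was used only for the floor. Read depth is unknown. E12.5, Hi-C and 4C samples were not analysed here.

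Genes came from RefSeq GRCm38.p6 (21631 protein-coding genes); exon positions were not used. Pooled lists were compared by description. Single-library cover, scaled to the same total, was fitted with limma 3.58.1 (R 4.3.3) on log2 of kb plus 1 kb for H3K27ac (mean of at least 1 kb) or 0.5 kb for ATAC (at least 0.3 kb), with Benjamini-Hochberg adjustment over all genes, and tested on simulated data. List summaries were compared by two-sided exact permutation tests. Cover was computed in Python 3.11.15 (pandas 2.3.3, numpy 2.4.6), exact tests in scipy 1.17.1 and figures in matplotlib 3.10.9.

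Named genes are 30 developmental genes, the 15 called genes each way with the largest scaled difference, and up to 4 genes per list with the largest scaled difference. Some genes that this rule or a list would name are not reported here. Named peaks are the 5 widest unpartnered ones per tissue. Members of lists called for a cartilage, or called in all cover settings, were also named, after their values were seen. The genes, lists and alternatives were chosen with earlier results of these data known. The lookup of unpartnered peaks in ATAC lists and the leaving out of libraries from the list summaries were added after seeing the data.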

Additional observations from a re-analysis of the deposited data

How the results depend on the processing

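The 892 MC and 2502 FL calls came out as 1206 and 1382 without the floor, 1177 and 2503 with a floor 2 times as high, 1268 and 1852 with the same number of peaks, 472 and 3560 without scaling, 990 and 2594 with 0.5 kb added, 518 and 2093 with 4 kb added, 1013 and 2834 with every gene of any cover, 864 and 2487 with domains of up to 100 kb, 1432 and 3636 by the widest peak, and 376 and 612 by the number of peaks. MC made up 26.3% of calls, 46.6% without the floor, 40.6% with the same number of peaks and 11.7% without scaling. The shares of unpartnered peaks, 9.69% and 38.0%, became 16.2% and 45.9% when 0.5 of a peak had to be covered, 23.4% and 21.6% without the floor, and 12.4% and 35.1% with the higher floor. The cause was not tested beyond what each setting changes by construction.

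Of 1230 values for 123 named genes, 10 in 6 genes turned direction: Dlx5 (-2.41 by widest peak, -0.90 by number of peaks), Fto (-0.17 by widest), Rbfox1 (0.052 by widest), Fzd8 (0.36 with the higher floor, 1.07 with 100 kb domains, 0.27 by widest), Polr2a (-0.21 by widest) and Grhl2 (0.28 without the floor, 0.058 with the same number of peaks). The neuronal marker median was -0.65, and 0.98 without the floor.

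The 9 ATAC calls became 38 with 0.1 kb added, 0 with 2 kb, 3 with every gene of any cover and 0 with the replicate block (2349 at an unadjusted limma p under 0.05); leaving out libraries gave 0 to 13. The H3K27ac fit gave 0 calls in each of its 12 settings, the replicate block included. Same-numbered libraries did not deviate together in H3K27ac (correlations -0.009, -0.019 and 0.038). In ATAC their correlations were small but positive (0.066, 0.079 and 0.069), and those of differently numbered libraries were negative (-0.069 to -0.004). No pairing is given in the labels, so the numbers were not taken to pair samples. In ATAC, though not in H3K27ac, every library correlated best with its own number. The deviations were taken from the mean of each cartilage, so positive same-number values make the others negative on balance. With 3 libraries each, this pattern cannot decide whether the numbers pair samples. The MC minus FL difference in the share of single-library peaks near a gene end, 0.03 percentage points within 1 kb, was -0.0067 within 2.5 kb and -0.0627 to 0.156 with libraries left out. Leaving out libraries gave differences of -3745 to -218 in peaks, 0.99 to 2.46 in Mb and 34.2 to 60.7 in bp of median width. Depth limits all of these comparisons to an unknown extent.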
